A study of Mus musculus with 32 samples.

Results

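Embryonic stem (ES) cells of the mouse line RGd2 were compared in 2i and 16 h after 2i was withdrawn, across all expressed genes. A gene was taken as expressed where its mean CPM (its reads scaled to a fixed total of reads on genes) was at least 1 in the 2i libraries or in the N16h libraries. That held for 13501 of the 51826 genes in the count table. Of these, 12282 reached 1 CPM in both groups, 573 in 2i alone and 646 at N16h alone.

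RGd2 cells carry a destabilised GFP reporter at the Rex1 (Zfp42) locus and no other engineered allele is named for them. The 2i group (3 libraries) was grown in N2B27 basal medium with 2 inhibitors, CHIRON (CHIR99021), a GSK3 inhibitor, and PD0325901, a MEK inhibitor. The N16h group (3 libraries) was the same cells 16 h after transfer to N2B27 without inhibitors. The labels, which were followed, give 3 RGd2 libraries at N16h and 2 of Etv5-KO. The study's methods instead name RGd2 at N16h as the group that lost a replicate during library preparation, and the written sources do not settle the difference. In the counts, the libraries labelled RGd2 at N16h held Etv5 and Rbpj far above the knockout levels in 2i (values below). In each group 2 libraries came from the parental line and 1 from a clonal line derived from it, so the groups hold 2 related lines and not 3 independent ones. The cells had been kept in CHIRON and LIF before they were moved to 2i. The series holds 32 libraries in all, and those of 3 other comparisons were used as values from separate cultures: Rbpj-KO (3 libraries in 2i and 3 at N16h, each from its own clone), Etv5-KO (3 clones in 2i, of which 2 at N16h), and RGd2 after 5 passages in 2i against RGd2 after 72 h in N2B27 (3 libraries each). The knockout clones were made in RGd2 cells.

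The ES cell state in 2i is called naive and stands for the epiblast before implantation. CHIRON stabilises beta-catenin, which relieves the repressor TCF3 (gene Tcf7l1) and turns on Wnt target genes, and PD0325901 blocks the ERK cascade downstream of FGF4. Once both are gone, ERK signalling resumes, and the cells pass through an interval called formative, during which naive transcription factors decline and factors such as Otx2 and Pou3f1 appear, before they become competent for germ layer and germ line fates.

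The libraries held 5986857 to 37042477 reads on genes in 2i and 23096785 to 46695457 at N16h. The shallowest, 2i replicate 33 (the clonal line), stood apart from the other 2i libraries. Its chi-square distance from them, per gene of at least 20 reads, was 48.3 and 47.1 where those others differed from each other by 9.60. It held 16950.2 normalised reads on the gene model Gm10800, where the other 2i libraries held 19.7 and 21.4, and 15456 on Rpph1, the RNA of RNase P, where they held 1314 and 1480.5. The fold changes of both turned sign without that library. Without it 1204 genes were called higher and 6305 lower, and without both clonal-line libraries 1220 and 5240, where all 6 libraries gave 1337 and 5009. The counts moved the other way without 2i replicate 31, a parental library, to 1757 higher and 3377 lower. ERCC spike-ins are RNA added to each sample. The study's methods do not give the amount, which the scaling below takes as equal. The spike-ins made up 0.991, 1.19 and 1.39% of reads in 2i and 1.32, 1.38 and 1.40% at N16h. The groups overlapped and their means differed by 0.174 percentage points (exact permutation test, two-sided p = 0.3, where 3 against 3 libraries cannot go below 0.1). That difference was 0.0737 without 2i replicate 31 and 0.275 without 2i replicate 33.

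The values below are read counts divided by a size factor from the spike-ins (normalised counts). Those of 2i stand in the order of replicates 31, 32 and 33 and those of N16h in the order of 22, 23 and 24, with the clonal line last. They compare a gene with itself. Levels are compared between genes as FPKM, which divides the scaled reads by the length of the gene's exons, given as mean ± SD (n = 3). Fold changes are log2 of N16h over 2i with their SE, from edgeR's quasi-likelihood test over all 19037 genes with enough reads, and a gene is called where its Benjamini-Hochberg adjusted p was under 0.05. The labels give the libraries as separate samples. The p-values measure the spread between libraries of the same condition, estimated over all 32 libraries of the series. In bulk RNA, fewer cells that express a gene and less RNA of it per cell cannot be told apart.

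At N16h 1337 expressed genes (9.9%) were called higher than in 2i and 5009 (37.1%) lower. Of the higher genes 369 had counted as expressed through the N16h libraries alone, and of the lower genes 424 through the 2i libraries alone. At least 8-fold changes were called for 91 higher and 136 lower genes, and at least 2-fold changes for 693 and 1373. The 2 groups of libraries did not overlap for 5913 expressed genes (43.8%), among them 5207 of the 6346 called (47% of expressed genes). The median log2 fold change over expressed genes was -0.23, so that a gene that kept pace with the others stood a little below 0.

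The split between higher and lower calls followed the scaling. With TMM, which centres the libraries on their genes and not on the spike-ins, the median moved to -0.03, a shift of 0.20, and 2875 genes (21.3%) were called higher and 3536 (26.2%) lower. Higher genes were 21.1% of the calls with the spike-ins and 44.8% with TMM. All 1337 genes called higher with the spike-ins were called higher with TMM, 3536 genes were called lower with both, and 0 genes were called in opposite directions. A change less than 0.20 below 0 on the log2 scale can thus take the other sign with TMM. The same shares, 37.1% lower and 9.9% higher with the spike-ins, are the background for the counts of each gene list below. Where a count of 3 or more genes of a list moved by more than 1.5 times with the clonal line as a replicate block, that count is given too. The blocked fit held only the 6 libraries compared, so it is set beside a fit of the same 6 without the block.

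**Figure D1:**
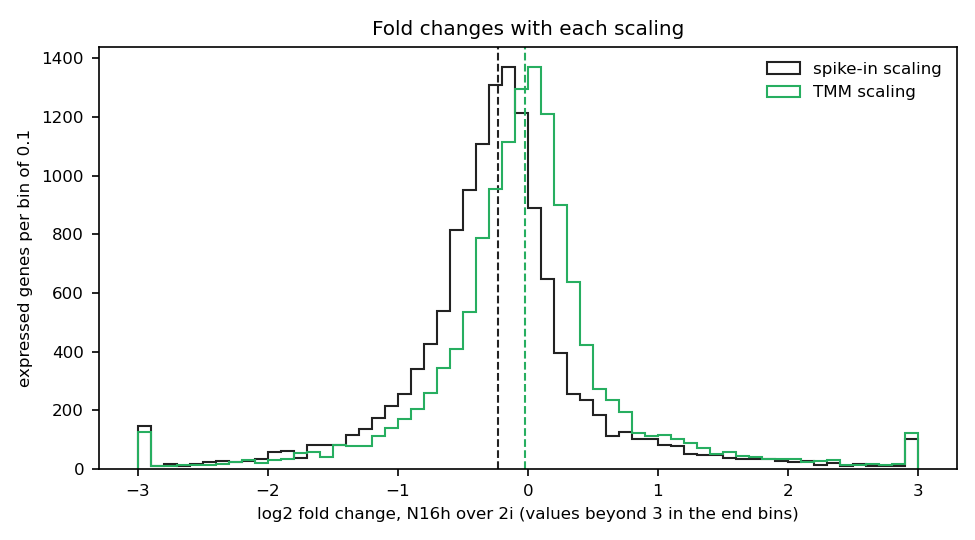
Number of expressed genes (y axis) by log2 fold change at N16h over 2i (x axis, bins of 0.1) with spike-in scaling (black) and TMM scaling (green); dashed lines mark the medians of -0.23 and -0.03, and the end bins collect values beyond 3. The curves have the same shape and stand 0.20 apart.

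By fold change, and leaving out gene models without a name, the 10 genes that rose most were Csn3, Shisa6, Spry4, Ccdc194, Insm1, Tnfsf11, Wt1os, Irx3, Cyp26a1 and Pdyn. Of these, Spry4, a feedback inhibitor of receptor tyrosine kinase signalling, was the one above 10 FPKM at N16h. Csn3, a milk casein, had no read in any 2i library and 49.6, 42.3 and 46.0 normalised counts at N16h, at least 8.07-fold higher against a floor of 3 reads per library, and Shisa6, likewise at 0 in 2i, had 36.2, 26.6 and 19.4, at least 4.82-fold. Insm1, a zinc-finger factor of neuroendocrine cells, held 0, 0.76 and 4.04 in 2i and 139.8, 93.5 and 93.1 at N16h, a ratio of 145 (95% exact interval 39.8 to 1197, counting error alone). Tnfsf11, the ligand RANKL, went from 1.79, 3.06 and 0 to 161, 158 and 176 and Cyp26a1, which degrades retinoic acid, from 1.79, 0 and 0 to 41.4, 48.6 and 19.4. The libraries of the 2 groups did not overlap for any of these genes, as the rule that picked them required.

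The 10 genes that fell most were Sp5, S1pr1, Pglyrp1, Adgrg5, Cdx2, Spic, Rtl8c, Cdx1, Evx1 and Htr5a. Sp5, Cdx1 and Cdx2 are Wnt targets and Evx1 is a homeobox gene of the primitive streak. Pglyrp1, which encodes a secreted peptidoglycan-binding protein, fell from 1069, 775 and 703 normalised counts to 0.74, 6.27 and 4.09, with log2 -7.71 ± 0.34. S1pr1, a receptor for sphingosine 1-phosphate, fell from 359, 268 and 226 to 0, 2.61 and 0, and Spic, an ETS-domain factor, from 481, 430.1 and 254 to 5.18, 4.18 and 3.07. Rtl8c, with 131, 70.3 and 48.5 in 2i and 2.22, 0.52 and 0 at N16h, has near-identical copies, and how reads fell between them is uncertain.

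By level, other genes led. The largest gains in FPKM among higher genes were those of Hist1h2bf, L1td1, Utf1, Mkrn1, Hist1h4b, Dnmt3l, Hmgcs1, Lin28a, Tdgf1 and Sinhcaf. Utf1, a chromatin factor of pluripotent cells, rose from 47.6 ± 26.3 to 162 ± 13.8 FPKM and L1td1, an RNA-binding protein of ES cells, from 121 ± 28.5 to 275 ± 22.4 FPKM. Mkrn1, an E3 ubiquitin ligase, rose from 58.6 ± 13.2 to 171 ± 2.22 FPKM and Lin28a, which blocks maturation of let-7, from 64.4 ± 9.27 to 149.7 ± 18.7 FPKM. The histone genes Hist1h2bf and Hist1h4b, members of a family of near copies, changed by log2 0.51 and 0.36. Neither call held when libraries were left out in turn: Hist1h2bf was not called without 2i replicate 32, 2i replicate 33, N16h replicate 22 and N16h replicate 23 (adjusted p = 0.079, 0.2, 0.059 and 0.097), and Hist1h4b was not called without 2i replicate 33, N16h replicate 22 and N16h replicate 23 (adjusted p = 0.31, 0.054 and 0.19).

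The largest losses in FPKM were those of the mitochondrial transcripts mt-Rnr2, mt-Co1, mt-Rnr1 and mt-Nd1, of Gm26917, Gm23935, Rpph1 and Gm10800, and of Nanog and Tdh. Gm26917, Rpph1 and Gm10800 rested on 2i replicate 33, without which their adjusted p was 0.26, 0.082 and 0.3, and Gm26917 and Rpph1 were not called with TMM either. The ribosomal RNAs mt-Rnr1 (log2 -0.42 ± 0.14) and mt-Rnr2 (-0.39 ± 0.12) were not called with TMM, and mt-Rnr2 was not called without 2i replicate 31, 2i replicate 32 and N16h replicate 23 (adjusted p = 0.11, 0.051 and 0.08), with the same libraries deciding mt-Rnr1. Nanog fell from 393 ± 15.9 to 82.0 ± 4.04 FPKM. Tdh, threonine dehydrogenase, the enzyme by which mouse ES cells feed threonine into one-carbon metabolism, fell from 22058, 18354 and 21238 to 4071, 3914 and 4301 normalised counts, and from 282 ± 47.1 to 64.3 ± 4.58 FPKM.

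**Figure D2:**
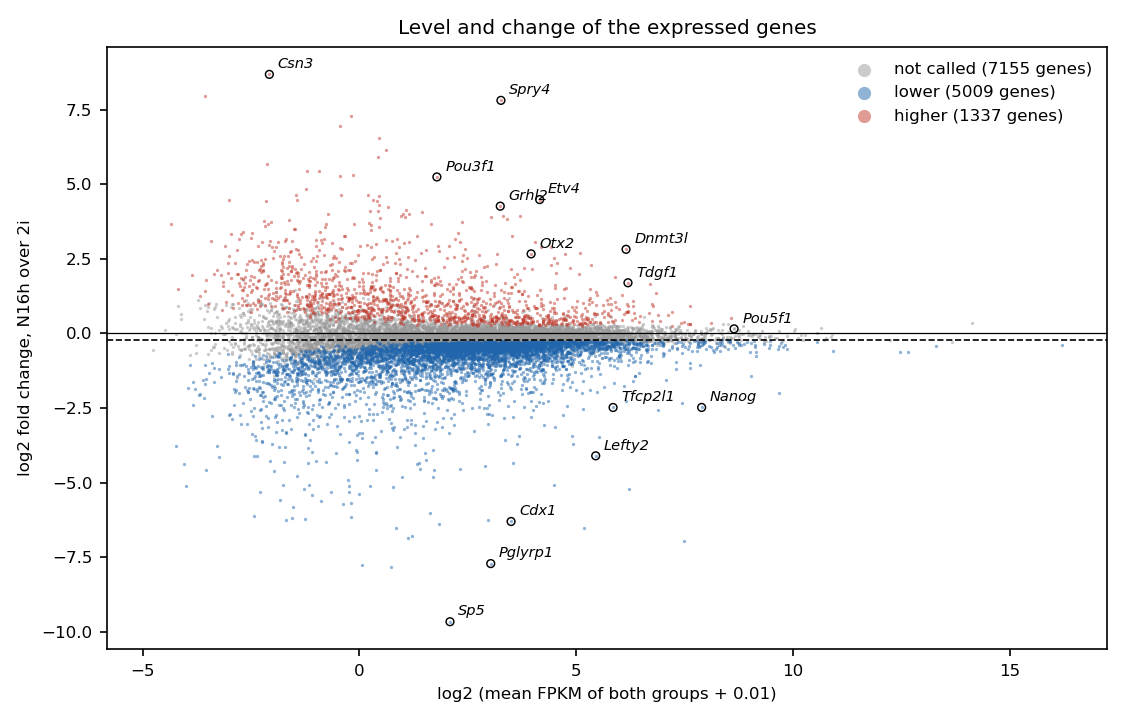
Log2 fold change at N16h over 2i (y axis) against log2 of the mean FPKM of both groups plus 0.01 (x axis) for the 13501 expressed genes, coloured by call, with named genes circled; the dashed line is the median of -0.23. Lower calls (5009) crowd below the line and the fewer higher calls (1337) lie above it.

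The naive factors, transcription factors and markers of the 2i state, fell for the most part. Of 14 in the list, all expressed, 11 were called lower and 2 higher, the list's median log2 change being -1.69 against -0.23 over all expressed genes. With TMM 10 were lower and 2 higher.

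Nanog, the homeobox factor at the centre of the naive network (GRCm38 chromosome 6, from 122707489 to 122714633, plus strand), held 29105, 25360 and 20532 normalised counts in 2i and 4399.7, 4466 and 4567 at N16h (log2 -2.48 ± 0.11, adjusted p = 3.3e-21). The N16h libraries agreed closely and lay far below every 2i library. Tfcp2l1, a factor downstream of LIF and Wnt signals, fell from 29627, 25410.4 and 21517 to 4548, 4304 and 4846 (log2 -2.48 ± 0.14).

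Prdm14, which represses FGF receptor signalling and the de novo methyltransferases, fell furthest of the 14, from 1451, 1179.5 and 1143 to 186, 196 and 147 (log2 -2.83 ± 0.14, adjusted p = 6.5e-20). Klf2 fell from 2069.8, 1886 and 4970.4 to 602, 484 and 406 (log2 -2.55 ± 0.21), with the clonal 2i library above the parental pair. Tbx3 (log2 -2.25 ± 0.16), Nr5a2 (-2.04 ± 0.11), Dppa3 (-1.94 ± 0.43), Tcl1 (-1.44 ± 0.14), Esrrb (-1.43 ± 0.11) and Klf4 (-1.39 ± 0.13) fell too. Esrrb, an orphan nuclear receptor and TCF3 target, still stood at 7599.8, 6865 and 7224 normalised counts at N16h against 22367, 17874 and 18218 in 2i.

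Klf5 changed least of the lower genes (log2 -0.41 ± 0.15) and was not called with TMM (log2 -0.21). It was not called without 2i replicate 31, N16h replicate 23 and N16h replicate 24 (adjusted p = 0.24, 0.078 and 0.1). Zfp42, the locus that carries the GFP reporter, was not called. It held 11681, 9865 and 7264 in 2i and 8622, 8947 and 8267 at N16h, all within the 2i range, with log2 -0.16 ± 0.11 that turned to 0.04 with TMM. Gbx2 and Nr0b1 went the other way. Gbx2, a homeobox gene, rose from 233, 190.2 and 254 to 1069, 918 and 985 (log2 2.17 ± 0.18), and Nr0b1, an orphan receptor also called Dax1, from 1959.6, 1700.5 and 2237 to 3893, 3632 and 3204 (log2 0.87 ± 0.13).

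Genes of pluripotency in general, those shared by naive and later epiblast, rose in the majority: 8 of 14 were called higher and 3 lower, with a median log2 of 0.88. With TMM the counts were 10 and 1. With the replicate block 1 lower and 8 higher were called, and without it on the same 6 libraries 1 lower and 8 higher. Pou5f1, the gene of OCT4, held 24371, 19605 and 22264 in 2i and 24403, 25026 and 24120.5 at N16h. All N16h values lay within or just above the 2i range (log2 0.15 ± 0.09, not called, and called higher with TMM at 0.33). Sox2 fell from 7573, 6071 and 8423 to 5704, 4912 and 4626 (log2 -0.53 ± 0.11), and no N16h library reached a 2i library.

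Tdgf1, the Nodal co-receptor Cripto, rose from 2569.6, 2256 and 1987 to 7064, 7455 and 7646 (log2 1.70 ± 0.12, adjusted p = 1.2e-14). Utf1 (log2 1.65 ± 0.17), Foxd3 (1.34 ± 0.24), Dppa4 (1.20 ± 0.10), Dppa2 (1.09 ± 0.10), Lin28a (0.98 ± 0.13) and L1td1 (0.93 ± 0.16) were also higher. Dppa5a and Sall4 were called lower by small amounts with the spike-ins (log2 -0.28 and -0.27) and not with TMM. Dppa5a was not called without 2i replicate 31, N16h replicate 22 and N16h replicate 24 (adjusted p = 0.18, 0.074 and 0.085), and Sall4 was not called without 2i replicate 31, N16h replicate 23 and N16h replicate 24 (adjusted p = 0.17, 0.095 and 0.13).

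**Figure D3:**
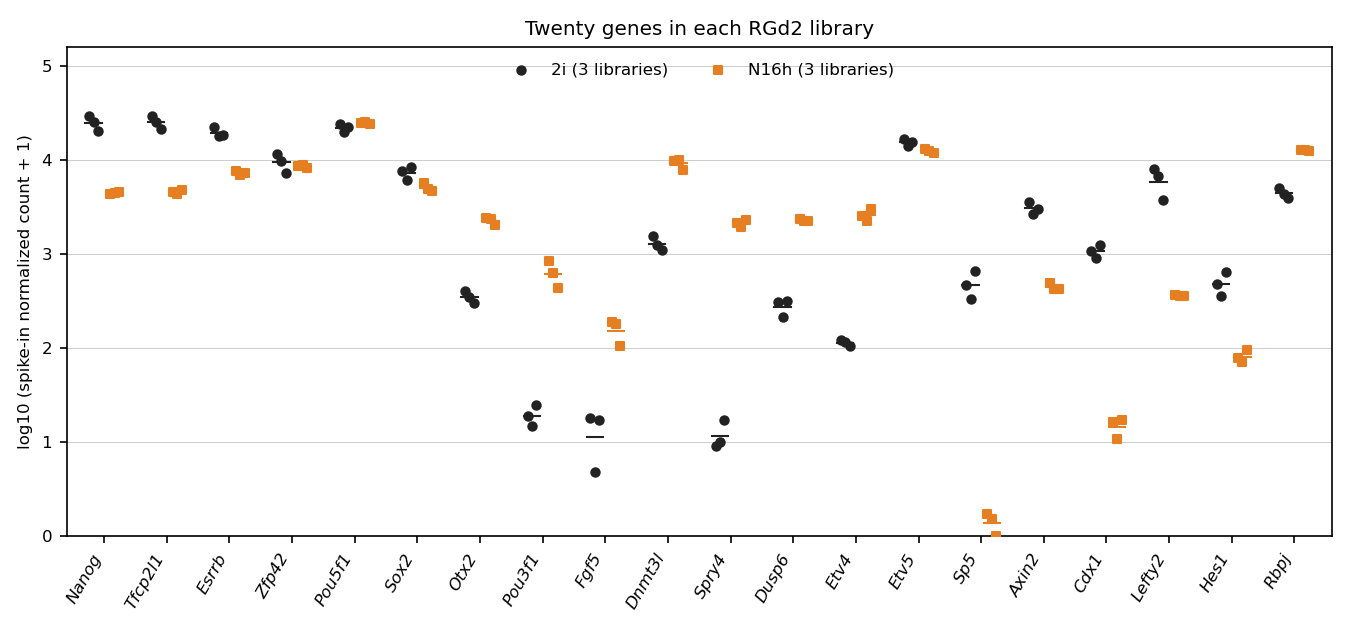
Log10 of the normalised count plus 1 (y axis) for 20 genes in each 2i library (black circles) and each N16h library (orange squares); short lines are means of the plotted logs. Nanog, Otx2, Spry4 and Axin2 are among the genes whose groups lie apart, while Zfp42 and Pou5f1 overlap.

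Formative genes rose. Of 18, 14 were called higher and 1 lower with either scaling, with a median log2 of 1.45 (1.65 with TMM). Pou3f1, the POU factor OCT6, rose from 17.9, 13.8 and 24.2 to 836, 627 and 436 (log2 5.24 ± 0.33). Otx2, which opens formative enhancers together with OCT4, rose from 403, 351 and 303 to 2432, 2363 and 2030.2 (log2 2.66 ± 0.13, adjusted p = 6.5e-20). The parental libraries held more Pou3f1 than the clonal one at N16h, and all were above every 2i library.

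Grhl2, an epithelial enhancer factor, rose from 133, 129.9 and 109 to 2633, 2419 and 2279.8 (log2 4.26 ± 0.19). Fgf5, the ligand used as the marker of post-implantation epiblast, had 17.0, 3.82 and 16.2 in 2i and 190.1, 179 and 103 at N16h (log2 3.87 ± 0.40), and by level it was still low, with 0.18 ± 0.11 in 2i and 2.57 ± 0.71 at N16h in FPKM. Fgf15 (3.94 ± 0.29), Tcf15 (2.52 ± 0.18), Foxp1 (2.26 ± 0.13), Sall2 (1.89 ± 0.14), Lef1 (1.10 ± 0.17), Sox3 (1.10 ± 0.38), Sox4 (1.02 ± 0.15) and Zic5 (0.85 ± 0.10) rose as well on the log2 scale. Of these Sox3 was not called without 2i replicate 31, 2i replicate 32 and N16h replicate 22 (adjusted p = 0.14, 0.088 and 0.15). Zic2, Sox12 and Tead2 were not called (log2 0.19, -0.26 and -0.26). Sall3 was the member that fell, from 2940.4, 2529 and 2863 to 1483, 1405 and 1030.4 (log2 -1.08 ± 0.13).

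The genes of de novo DNA methylation rose, and Prdm14, their repressor, fell. Dnmt3l, the cofactor of the de novo enzymes, rose from 1558, 1238 and 1102 to 9775, 10092 and 7844 (log2 2.82 ± 0.15, adjusted p = 1.6e-18), that is from 15.3 ± 0.35 to 127 ± 14.1 FPKM. Dnmt3a rose from 5916, 4422 and 3658 to 14422, 14770.3 and 14289.9 (log2 1.63 ± 0.13) and Dnmt3b from 5788, 4538 and 4781 to 13899, 13012 and 9711 (log2 1.28 ± 0.13). Dnmt1, the maintenance enzyme, and its partner Uhrf1 were not called with either scaling (log2 -0.20 and -0.12). Among the oxidases that remove the mark, Tet1 rose (log2 0.94 ± 0.14), Tet3 fell (-0.61 ± 0.14) and Tet2 was not called (0.17 ± 0.12), though it was with TMM (0.37). In all 4 of 11 genes were higher and 2 lower, or 7 and 2 with TMM and 8 and 1 against 2i after 5 passages.

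Genes that ERK induces and that restrain it in turn rose in the majority. Of 12 such feedback genes 7 were called higher and 2 lower, or 9 and 2 with TMM. Spry4 held 8.06, 9.17 and 16.2 normalised counts in 2i and 2144, 1955 and 2301 at N16h (log2 7.81 ± 0.22, adjusted p = 7.6e-28), the smallest adjusted p of all genes named here. Dusp6, a cytoplasmic ERK phosphatase, rose from 308, 215 and 319 to 2381, 2243 and 2256 (log2 3.07 ± 0.13), and Dusp4, a nuclear one, from 105, 101 and 52.5 to 1420.0, 1281 and 1312 (log2 3.82 ± 0.18). In each case the lowest N16h library held several times the reads of the highest 2i library.

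Spry2 (log2 2.32 ± 0.17), Spred3 (2.17 ± 0.19), Spred1 (1.09 ± 0.12) and Spry1 (0.59 ± 0.17), inhibitors that act on RAS and RAF, rose too. For Spry1 the clonal 2i library, at 287, lay above 2 of the N16h libraries, and the gene was not called without 2i replicate 31 and 2i replicate 32 (adjusted p = 0.11 and 0.06). Il17rd, Spred2 and Dusp5 were not called (log2 0.03, 0.15 and 0.23), and with TMM Il17rd and Spred2 were (0.22 and 0.34). Dusp14, a phosphatase that acts on several kinases, fell from 358, 265 and 388 to 73.2, 91.4 and 94.1 (log2 -1.94 ± 0.18), as did the adaptor Sh2b3 (log2 -0.56 ± 0.16), which was not called without 2i replicate 31 (adjusted p = 0.11).

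The 3 PEA3 factors, ETS-domain factors activated by ERK, differed. Etv4 (GRCm38 chromosome 11, from 101769742 to 101785371, minus strand) rose from 120.0, 116 and 105 to 2545, 2223 and 3017 (log2 4.48 ± 0.15, adjusted p = 3.8e-25) and Etv1 from 614, 502 and 602 to 1413, 1282 and 1441 (log2 1.28 ± 0.13). Etv5 was not called: it held 16791, 14116 and 15517 in 2i and 13157, 12468 and 11984 at N16h (log2 -0.30 ± 0.15, -0.13 with TMM). These counts are for the whole gene and pool its isoforms. The study describes a truncated form in undifferentiated cells and a canonical form that appears after the inhibitors are withdrawn. Gene counts cannot show a switch between such forms, and it was not tested. By level Etv5 remained the highest of the 3, in FPKM, with 135 ± 18.7 in 2i and 125 ± 2.12 at N16h, against 1.31 ± 0.12 in 2i and 34.4 ± 6.07 at N16h for Etv4 and 1.54 ± 0.28 in 2i and 4.26 ± 0.32 at N16h for Etv1.

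Of 22 immediate early genes, 14 were expressed, and Egr1, Egr2, Egr3, Egr4, Fos, Fosb, Fosl1 and Fosl2, the transient responders to ERK, stayed under 1 CPM in both groups on average. Among the 14, 4 were called higher and 3 lower, or 8 and 3 against 2i after 5 passages. Phlda1, which had 11.6, 11.5 and 0 in 2i and 68.0, 62.7 and 90.0 at N16h (log2 2.84 ± 0.37), Myc (1.55 ± 0.16), Arc (0.94 ± 0.14) and Junb (0.87 ± 0.30) were higher. Mycl, the L-MYC gene (log2 -1.82 ± 0.14), and Nr4a1, an orphan nuclear receptor (-1.46 ± 0.15), fell, while Ier5 (log2 -0.87 ± 0.30) was called lower with the spike-ins and not with TMM. Ier5 was not called without 2i replicate 31, 2i replicate 33, N16h replicate 23 and N16h replicate 24 (adjusted p = 0.23, 0.057, 0.063 and 0.1), and Junb was not called without 2i replicate 31, 2i replicate 32 and N16h replicate 22 (adjusted p = 0.16, 0.12 and 0.14). Mycn, the most abundant MYC gene here at 38.0 ± 5.65 in 2i and 37.9 ± 7.44 at N16h in FPKM, was not called (log2 -0.19 ± 0.13).

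Of 8 expressed FGF ligands and receptors Fgf5 and Fgf15 were called higher and Fgfr1 lower. Fgf4, the autocrine ligand of ES cells, held 5448, 4804 and 5952 in 2i and 6449, 5818 and 5276 at N16h (log2 0.12 ± 0.11, not called, and 0.29 with TMM, which was). Fgfr1, the main receptor, was called lower with the spike-ins (log2 -0.34 ± 0.11) but not with TMM (-0.15) and was not called without 2i replicate 31, 2i replicate 33, N16h replicate 23 and N16h replicate 24 (adjusted p = 0.1, 0.064, 0.074 and 0.063). Fgfr2 was not called (log2 -0.27 ± 0.16).

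Most Wnt target genes fell. Of 21 in the list 17 were expressed, and 13 of these were called lower with either scaling, with a median log2 of -1.22. Sp5, a zinc-finger factor that acts within the Wnt response (GRCm38 chromosome 2, from 70474923 to 70477729, plus strand), held 470.2, 336 and 654 normalised counts in 2i and 0.74, 0.52 and 0 at N16h, that is 1127 against 2 reads. That is a ratio of 895 (95% exact interval 247 to 7396, counting error alone).

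The caudal homeobox genes followed. Cdx1 fell from 1065, 908 and 1252 to 15.5, 9.92 and 16.4 (log2 -6.30 ± 0.26) and Cdx2 from 399, 262 and 230.1 to 1.48, 1.57 and 6.14 (log2 -6.79 ± 0.45). T, the Brachyury gene, fell from 457, 318 and 182 to 15.5, 17.2 and 15.3 (log2 -4.37 ± 0.28). Every N16h library of these genes lay far below every 2i library.

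The feedback inhibitors of the pathway fell as well. Axin2, the scaffold of the destruction complex that is itself a target, fell from 3557, 2671 and 3048 to 493, 421 and 422 (log2 -2.80 ± 0.14, adjusted p = 4.6e-19). Rnf43 (log2 -4.11 ± 0.39) and Znrf3 (-0.72 ± 0.14), ligases that remove the receptor, Notum (-1.15 ± 0.16), which inactivates the ligand, Nkd1 (-1.29 ± 0.28) and Apcdd1 (-1.21 ± 0.22) were lower, as were Tnfrsf19 (-2.23 ± 0.14), Sp8 (-1.22 ± 0.20) and Tcf7 (-0.86 ± 0.13). Ccnd1 and Bambi were not called with the spike-ins (log2 0.03 and -0.37), nor was Ascl2 (-0.99), while with TMM Ccnd1 was called higher (0.22). Lef1, a target and itself a factor of the pathway, was the one that rose, from 1790.4, 1483 and 1236 to 3711, 3393 and 2659 (log2 1.10 ± 0.17).

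The promoters of 2 fallen targets are shown because they hold the core TCF motif, CTTTGAT, which was searched on both strands from 250 bases before to 50 after the start site (RefSeq, GRCm38.p6, read along the gene). Sp5 is shown at chr2:70474673-70474972, on the plus strand, and Tnfrsf19 at chr14:61037938-61038237, on the minus strand. Capitals mark the motif, which in Tnfrsf19 lies on the other strand and so reads in reverse complement.
Sp5: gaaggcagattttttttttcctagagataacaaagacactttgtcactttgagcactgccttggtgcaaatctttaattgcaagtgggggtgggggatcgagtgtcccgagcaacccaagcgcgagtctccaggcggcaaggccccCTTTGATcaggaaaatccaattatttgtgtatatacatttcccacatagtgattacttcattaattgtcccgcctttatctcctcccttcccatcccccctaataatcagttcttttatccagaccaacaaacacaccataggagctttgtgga
Tnfrsf19: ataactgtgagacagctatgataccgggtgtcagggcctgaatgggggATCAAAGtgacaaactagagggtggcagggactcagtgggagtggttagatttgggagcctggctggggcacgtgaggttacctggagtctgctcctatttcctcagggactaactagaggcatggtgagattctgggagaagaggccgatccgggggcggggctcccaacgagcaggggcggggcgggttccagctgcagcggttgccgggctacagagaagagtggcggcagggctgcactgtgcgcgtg
Of the 11 expressed Wnt targets whose promoter could be matched 2 held the motif, and so did 2.94% of expressed genes and 4.29% of all 27025 genes. The same search for CCGGAA, the core ETS motif, found it in 2 of 10 ERK feedback genes (Spry2 and Dusp14, one of which rose and the other fell) against 31.9% of expressed genes and 16.7% of all. TGGGAA, the core RBPJ motif, was in 2 of 10 naive factors (Nanog and Esrrb) against 26.4% of expressed genes and 28.3% of all. The CArG box, which binds SRF, was in 1 of 10 expressed immediate early genes (Srf itself) against 1.52% of expressed genes and 1.81% of all. The ETS and RBPJ cores share the letters GGAA.

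Of the 7 TCF factors and parts of the destruction complex 4 were called lower, and 3 with TMM. The blocked fit called 2 lower and 0 higher, and so did the 6 libraries without the block, with 2 lower and 0 higher. With 2i after 5 passages as the baseline 0 lower and 1 higher were called. Tcf7l1 fell from 1185, 882 and 1316 to 814, 698 and 548 (log2 -0.70 ± 0.21). The call was lost without both clonal-line libraries (adjusted p = 0.12), and Tcf7l1 was not called without N16h replicate 24 (adjusted p = 0.056). Gsk3b, the kinase CHIRON inhibits, was lower (log2 -0.56 ± 0.11), and so was Axin1 (-0.37 ± 0.12), which was not called without 2i replicate 31 and N16h replicate 24 (adjusted p = 0.29 and 0.058). Gsk3a (log2 -0.29 ± 0.12) was not called with TMM and was not called without 2i replicate 31, N16h replicate 23 and N16h replicate 24 (adjusted p = 0.33, 0.21 and 0.072). Ctnnb1, the beta-catenin gene, was not called (log2 -0.05 ± 0.10, 0.14 with TMM, which was called higher). Apc and Tcf7l2 were not called (log2 -0.25 and -0.06).

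**Figure D4:**
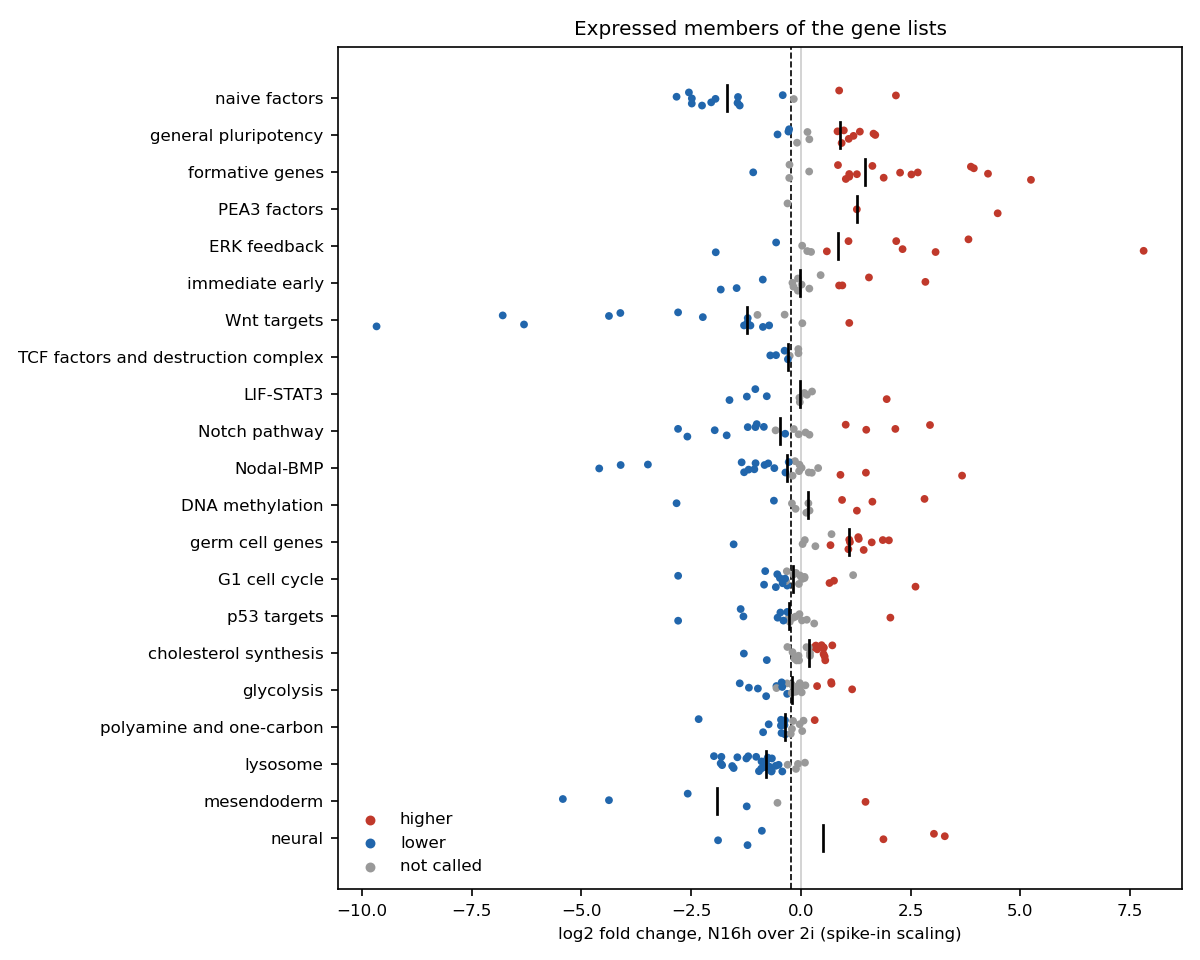
Log2 fold change at N16h over 2i (x axis) of each expressed member of 21 gene lists (y axis), coloured by call, with black bars at the list medians and a dashed line at the median of all expressed genes, -0.23. Naive factors, Wnt targets and lysosome genes lie mostly to the left, formative and germ cell genes mostly to the right, and most other lists spread around the line.

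LIF signalling is the other input that sustains naive cells. Of 10 expressed components 4 were called lower and 1 higher, or 4 and 3 with TMM. The spike-in counts lay near the shares of all expressed genes (37.1 and 9.9%). Against 2i after 5 passages the counts were 4 lower and 5 higher. Jak2, the kinase, fell from 582, 451 and 327 to 173, 128 and 155 (log2 -1.62 ± 0.18) and Il6st, the shared receptor gp130, from 6214, 4995 and 3355 to 2143, 2048 and 2055 (log2 -1.23 ± 0.13). Stat3 (log2 -0.78 ± 0.12) and Lif itself (-1.04 ± 0.20) were lower. Lifr was not called (log2 -0.03 ± 0.12, 0.17 with TMM). Socs3, the feedback inhibitor that STAT3 induces, had 18.8, 7.64 and 8.08 in 2i and 48.8, 46.0 and 50.1 at N16h and was called higher (log2 1.96 ± 0.37), at 0.14 ± 0.053 in 2i and 0.69 ± 0.043 at N16h in FPKM.

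In the Nodal and BMP pathway 13 of 24 expressed genes were called lower and 3 higher, or 10 and 6 with TMM. Against 2i after 5 passages 9 lower and 9 higher were called. Lefty2, a secreted Nodal antagonist and SMAD2/3 target, fell from 8081, 6700.4 and 3715 to 363, 361 and 358 (log2 -4.10 ± 0.19, adjusted p = 3.3e-20) and Lefty1 from 5215, 3860.1 and 3525 to 455, 403 and 265 (log2 -3.48 ± 0.17). Nodal itself fell from 3077, 2449.9 and 2273 to 1378, 1268 and 1184 (log2 -1.03 ± 0.10). The N16h libraries of Lefty2 differed by few counts, while its 2i libraries ran down to 3715 in the clonal line.

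Smad3 (log2 -1.29 ± 0.12), Smad7 (-1.19 ± 0.18), Gdf3 (-0.83 ± 0.11) and the type I receptor Acvr1b (-1.06 ± 0.12) fell too. Of the Id genes, which encode inhibitors of bHLH factors and respond to BMP, Id4 fell from 285, 243 and 335 to 17.0, 9.92 and 7.16 (log2 -4.59 ± 0.23) and Id1 rose from 31.3, 32.8 and 24.2 to 74.0, 71.0 and 119.7 (log2 1.48 ± 0.32), while Id2 and Id3 were not called (log2 -0.03 and 0.18, or 0.21 and 0.40 with TMM, where Id3 was). Inhbb, an activin subunit, rose from 56.4, 42.0 and 40.4 to 548, 523 and 758 (log2 3.67 ± 0.25), and the repressor Skil from 3421, 2866 and 2188 to 5468, 5377 and 5099 (log2 0.90 ± 0.11).

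Of 18 expressed Notch pathway genes 9 were called lower and 4 higher, or 8 and 5 with TMM. The receptors Notch1 (log2 -0.84 ± 0.12), Notch2 (-1.03 ± 0.11) and Notch4 (-1.21 ± 0.14) fell, as did Notch3, from 1635, 1348 and 1668 to 899, 791 and 612 normalised counts. The ligand Jag1 fell as well (log2 -1.69 ± 0.16). Target genes fell too, Hes1 from 482, 359.8 and 646 to 78.4, 70.0 and 94.1 (log2 -2.58 ± 0.16) and Hey1 from 62.7, 52.7 and 52.5 to 8.87, 6.79 and 9.21 (log2 -2.80 ± 0.29), and Nrarp, a feedback inhibitor, by log2 -1.96 ± 0.27. The ligand Dll1 rose from 107, 97.0 and 96.9 to 929.6, 848 and 542 (log2 2.94 ± 0.21). Rbpj, the DNA-binding factor of the pathway, rose from 5097, 4328 and 3981 to 12766, 12629.5 and 12327 (log2 1.49 ± 0.21, adjusted p = 1.8e-07), with all N16h libraries far above all 2i libraries. Gadd45g, a stress and differentiation gene, rose from 214, 176 and 96.9 to 869.7, 833 and 595 (log2 2.15 ± 0.25).

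Genes of the germ line, many of them held silent by DNA methylation in somatic cells, rose in the majority: 10 of 15 expressed were called higher and 1 lower, with a median log2 of 1.10. Piwil2, a PIWI protein, rose from 157, 131 and 266 to 623, 603 and 625 (log2 1.87 ± 0.17), Mael from 182, 157 and 101 to 429, 478 and 522 (1.61 ± 0.17) and Hormad1, of the meiotic axis, from 420.1, 416 and 145 to 889.7, 950.0 and 761 (1.31 ± 0.21). The synaptonemal genes Sycp1, Sycp2 and Sycp3 (log2 1.32, 2.01 and 1.08), Tex11 (1.43), Tdrd1 (1.10), Taf7l (1.12) and Ddx4 (0.68) were also higher. The highest in level of those that rose was Hormad1, from 6.51 ± 2.71 to 20.5 ± 1.95 FPKM. Dazl, Rpl10l, Stk31 and Slc25a31 were not called (the last of these and Stk31 were higher with TMM), and Tdrd9 fell (log2 -1.53 ± 0.32).

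In the G1 list 9 of 23 genes were lower and 3 higher (6 and 4 with TMM). The spike-in counts lay near the 37.1% lower and 9.9% higher of all expressed genes. Against 2i after 5 passages the counts were 3 lower and 8 higher. Ccnd2, cyclin D2, rose from 481, 295 and 226 to 2036, 2257 and 2102 (log2 2.61 ± 0.31). Ccne1, cyclin E1, rose from 4189.8, 3533 and 3218 to 5945, 5788 and 5517 (log2 0.65 ± 0.11), and Ccnd1 was not called. Cdkn1a, the CDK inhibitor p21 and a p53 target, fell from 2124, 1489 and 1429 to 255, 256 and 217 (log2 -2.79 ± 0.16). Cdkn2a (-0.84 ± 0.15) and Cdkn1b (-0.57 ± 0.11), the p16/p19 and p27 genes, fell by less on the log2 scale. Cdkn1c, p57, differed between the lines. It held 536, 432 and 24.2 in 2i and 1299, 1077 and 109 at N16h, low in the clonal library of each group, and was not called (log2 1.19 ± 0.59).

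Of 16 expressed p53 targets 7 were lower and 1 higher, or 5 and 3 with TMM. The shares of the list were 43.8 and 6.25% lower and higher, beside 37.1 and 9.9% of all expressed genes. Next to Cdkn1a, Phlda3 fell from 1564, 1173 and 1304 to 576, 522 and 465 (log2 -1.37 ± 0.12) and Tigar, a fructose bisphosphatase, from 2252, 1701 and 1837 to 785, 775 and 784 (-1.31 ± 0.11). Pmaip1, the BH3-only gene Noxa, rose from 52.8, 41.3 and 40.4 to 162, 166 and 247 (log2 2.04 ± 0.21). Mdm2, the ligase that p53 induces, was not called (log2 -0.03 ± 0.09, and 0.16 with TMM, which was), nor was Trp53 (-0.27 ± 0.11).

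Most lysosome genes fell. Of 28, all expressed, 24 were called lower and 0 higher, with a median log2 of -0.80. With TMM 23 were lower and 1 higher. Hexa, a subunit of beta-hexosaminidase, fell from 1589.8, 1206 and 1276 to 376, 355 and 303 (log2 -1.98 ± 0.12). Lamp2, a membrane protein (log2 -1.83 ± 0.13), the proteases Ctsb (-1.56 ± 0.12), Ctsl (-1.20 ± 0.16), Ctsa (-1.45 ± 0.13) and Tpp1 (-1.24 ± 0.12), and Npc2, which carries cholesterol (-1.53 ± 0.13), fell as well. Tfeb, the factor that drives these genes, fell from 445, 361 and 315 to 110.2, 118 and 99.3 (log2 -1.79 ± 0.17). Its relative Tfe3 was not called with the spike-ins (log2 0.09 ± 0.12) and was called higher with TMM (0.29). The summed level of the list was 2034 to 2051 CPM in 2i and 1260.4 to 1351 CPM at N16h, so the groups did not overlap on that scale either.

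Of 24 genes of cholesterol synthesis and its control 10 were called higher and 2 lower (15 and 2 with TMM). With the replicate block 2 lower and 6 higher were called, and without it on the same 6 libraries 2 lower and 3 higher. Hmgcs1, the synthase at the entry of the pathway, rose most, from 11355, 9766 and 7026 to 15389.6, 15734 and 15253 (log2 0.72 ± 0.12), followed by Idi1 (0.56 ± 0.13) and Lss (0.54 ± 0.10). Ebp, a sterol isomerase, fell from 1786, 1375 and 1397 to 618, 609 and 634 (log2 -1.30 ± 0.11), and so did the lipogenic factor Srebf1 (-0.78 ± 0.12). Srebf2, the main activator of the pathway, was not called (log2 -0.14 ± 0.12).

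Of 23 glycolytic genes 8 were lower and 4 higher (7 and 7 with TMM). The shares, 34.8 and 17.4%, lay near the 37.1 and 9.9% of all expressed genes. With the replicate block 5 lower and 3 higher were called, and without it on the same 6 libraries 4 lower and 3 higher. Hk1, hexokinase 1, fell from 2905, 2151 and 1974 to 908, 905 and 881 (log2 -1.39 ± 0.12) and the glucose transporter gene Slc2a3 from 50876, 42272 and 35855 to 20793, 19498 and 16556 (-1.18 ± 0.12). Its relative Slc2a1 rose (log2 0.70 ± 0.12), as did Pdk1, the kinase that holds pyruvate out of mitochondria, from 3736, 3229 and 2657 to 7505, 7281 and 6938 (1.17 ± 0.10). Ldhb fell (-0.98 ± 0.16) and Ldha was not called (log2 0.10 ± 0.13, 0.31 with TMM, which was called higher).

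Among 16 genes of one-carbon and polyamine metabolism 9 were lower and 1 higher, or 9 and 3 with TMM. With the replicate block 4 lower and 0 higher were called, and without it on the same 6 libraries 3 lower and 0 higher. Against 2i after 5 passages the balance turned, to 2 lower and 9 higher, and Phgdh, Psat1 and Psph changed sign. Tdh led (log2 -2.33 ± 0.12, adjusted p = 1.6e-19), its partner Gcat fell by less (-0.86 ± 0.11), and the serine enzymes Phgdh (-0.73 ± 0.12), Psat1 (-0.44 ± 0.12) and Psph (-0.45 ± 0.11) by less still, with Psat1 not called without 2i replicate 31 (adjusted p = 0.074). Odc1, the first enzyme of polyamine synthesis, was the one called higher (log2 0.32 ± 0.10), and was not called without 2i replicate 33 (adjusted p = 0.082).

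Of 84 expressed ribosomal protein genes 21 were lower and 0 higher with the spike-ins (median log2 -0.17), against 6 and 3 with TMM (median 0.01). The lower share, 25%, was below the 37.1% of all expressed genes. With the replicate block 4 lower and 0 higher were called, and without it on the same 6 libraries 2 lower and 0 higher. Against 2i after 5 passages the counts were 46 lower and 4 higher. Of 36 complex I subunits 18 were lower (median log2 -0.29), or 9 with TMM (-0.10), with 0 and 0 called higher. The blocked fit called 5 lower and 0 higher, and the 6 libraries without the block 4 lower and 0 higher. Of 10 expressed protein genes of the mitochondrial genome 7 were lower (median log2 -0.55), or 6 with TMM, with mt-Co1, an oxidase subunit, at log2 -0.62 ± 0.11. Against 2i after 5 passages 3 of these mitochondrial genes were lower and 0 higher. Replication-dependent histone genes ran from log2 -1.55 to 2.62, with 16 of 59 lower and 7 higher (27.1 and 11.9%), or 6 and 10 with TMM. For these genes the blocked fit gave 7 lower and 6 higher, the 6 libraries without the block 6 lower and 4 higher, and 2i after 5 passages as the baseline 5 lower and 14 higher. Their transcripts lack a poly(A) tail and many are near copies of each other.

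Of 17 stress genes 5 were lower and 2 higher, or 4 and 7 with TMM. The shares of the list were 29.4 and 11.8% lower and higher, beside 37.1 and 9.9% of all expressed genes. With the later 2i cultures as the baseline the balance turned, to 3 lower and 10 higher. Asns, asparagine synthetase, fell from 23722, 18922 and 17475 to 8897, 8695 and 9413 (log2 -1.16 ± 0.11), while Atf4, Ddit3, Trib3 and the chaperone Hspa5 were not called with the spike-ins (log2 -0.17, -0.43, -0.04 and 0.00, or 0.02, -0.19, 0.18 and 0.21 with TMM, where Hspa5 was). Of 20 expressed adhesion genes 5 were lower and 3 higher (25 and 15%). Here too the later baseline turned the balance, to 3 lower and 8 higher. Epcam, an epithelial adhesion molecule, rose from 852, 728 and 448 to 2901, 2997 and 2381 (log2 1.98 ± 0.16). Cdh1, E-cadherin (-0.45 ± 0.12), Cdh2, N-cadherin (-0.75 ± 0.19), Vim (-0.84 ± 0.13) and Fn1 (-0.89 ± 0.14) fell. Without 2i replicate 31 Cdh1 and Cdh2 were not called (adjusted p = 0.056 and 0.086). Among 21 chromatin genes 3 were higher and 5 lower (14.3 and 23.8%), or 8 and 4 with TMM and 1 lower and 10 higher against the later baseline. The largest rise was that of Jarid2, a PRC2 cofactor, from 7065, 5429 and 4849 to 12202, 12026 and 11292 (log2 1.03 ± 0.11), with Kdm2b at 0.87 ± 0.11.

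The ES cell label was checked against 10 markers, all of which were expressed in both groups. Pou5f1 had 351 ± 51.2 to 448 ± 13.4 FPKM and Sox2 129 ± 34.9 to 101 ± 8.11 FPKM from 2i to N16h. Of 10 fibroblast feeder markers 3 were expressed, and Col1a1, Col1a2, Col3a1, Postn, Dcn, Lum and Acta2 stayed under 1 CPM. The summed level of the list was 9.48 to 11.2 CPM in 2i and 5.1 to 6.15 CPM at N16h, with Pdgfrb called lower (log2 -1.95 ± 0.23) and Twist1 higher (1.17 ± 0.43). Twist1 was not called without 2i replicate 31, 2i replicate 32 and N16h replicate 22 (adjusted p = 0.092, 0.17 and 0.26). Of 12 primitive endoderm markers 5 were expressed, with Gata4, Sox17 and Sox7 under 1 CPM and Ttr at 0 in all 6 libraries. The summed level of the list, 35.7 to 40.1 CPM in 2i and 312 to 386 CPM at N16h, did not overlap between the groups. Lrp2, the receptor megalin, rose from 1141, 898 and 585 to 9575, 9119 and 6922 normalised counts (log2 3.25 ± 0.19), with a mean of 349 CPM at N16h, while Gata6, Dab2, Cubn and Pdgfra were not called. The 4 expressed genes of the rare two-cell-like state, Zscan4c, Zscan4d, Zscan4f and Usp17lc, were not called either. Against 2i after 5 passages, however, 4 were called higher. Zscan4d held 453, 396 and 36.3 in 2i and 484, 403 and 34.8 at N16h, low in the clonal library of each group. The part of such cells in the results above was not tested.

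Of 6 expressed mesendoderm genes 4 were lower. Gsc, which had 16.1, 12.2 and 60.6 in 2i and 0, 1.04 and 0 at N16h, Mixl1 (log2 -2.58 ± 0.54), Eomes (-1.23 ± 0.22) and T fell, and Kdr was higher (1.47 ± 0.35). Of 6 expressed neural genes 3 were higher and 3 lower. Sox1 rose from 8.96, 19.1 and 28.3 to 138, 119.6 and 141 (log2 3.03 ± 0.38, or 0.15 ± 0.093 to 1.13 ± 0.11 FPKM) and Pax6 from 55.5, 42.8 and 8.08 to 515, 494 and 236 (3.28 ± 0.27), whereas Tubb3 fell from 2811, 2303 and 2519.5 to 772, 706 and 585 (-1.89 ± 0.12) and Nes was lower (-1.21 ± 0.18). Tfap2c, a trophoblast and germ line factor, fell from 859, 642 and 937 to 96.9, 91.4 and 97.2 (log2 -3.08 ± 0.17). With it 3 of 7 expressed trophoblast genes were lower and 2 higher.

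The miR-290 cluster, a main source of microRNA in mouse ES cells, gave reads on 6 of its hairpins at 1 CPM or more. The kit does not select small RNA, so these reads cannot be taken for mature microRNA. Mir290a, at 96.7, 68.0 and 72.7 in 2i and 122, 155 and 122 at N16h, Mir291a (log2 0.76 ± 0.24) and Mir291b (0.61 ± 0.21) were called higher. Mir290a was not called without 2i replicate 32 and N16h replicate 23 (adjusted p = 0.078 and 0.062), with the same libraries deciding Mir291b. Mir292, Mir293 and Mir295 had log2 0.56, 0.54 and 0.79 and were not called, though Mir293 was with TMM. The mature 3p sequences of the called hairpins (RefSeq, GRCm38.p6, chromosome 7, plus strand) are shown because their seeds, bases 2 to 8 in capitals, share the first 6 bases.
mmu-miR-290a-3p: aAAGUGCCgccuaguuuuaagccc
mmu-miR-291a-3p: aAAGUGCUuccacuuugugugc
mmu-miR-291b-3p: aAAGUGCAuccauuuuguuugu
The seed of miR-295-3p, from a hairpin that was not called, is that of miR-291a-3p.

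The genes called in RGd2 were then read in the other libraries of the series. The targeted genes checked the labels of the knockouts: Rbpj stood at 1097 ± 139 normalised counts (SD, n = 3) in Rbpj-KO in 2i against 5097, 4328 and 3981 in RGd2, and Etv5 at 2241 ± 146 (n = 3) in Etv5-KO against 16791, 14116 and 15517. The 3 libraries labelled RGd2 at N16h held 13157, 12468 and 11984 of Etv5 and 12766, 12629.5 and 12327 of Rbpj. None of them was near the reduced level of either knockout in 2i. In Rbpj-KO, 1080 of the 1337 higher genes were also called higher at N16h than in 2i (80.8%), where 12.9% of all expressed genes (1747) were, and 0 were called lower. Of the 5009 lower genes 2055 were called lower (41.0%, background 15.7% or 2120 genes) and 31 higher. In Etv5-KO 1206 of the higher genes were higher (90.2%, background 31.7% or 4276 genes) and 1217 of the lower genes lower (24.3%, background 9.5% or 1282 genes), with 456 of the latter called higher. The median log2 fold change of all expressed genes with the spike-ins was -0.03 in Rbpj-KO and 0.21 in Etv5-KO against -0.23 in RGd2. With TMM, 63.3% of the genes then called higher were higher in Rbpj-KO (background 17.3%) and 67.6% of the lower genes lower (background 21.1%). In Etv5-KO the TMM shares were 63.1% (background 21%) and 62.5% (background 23.7%).

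Nanog, for instance, had log2 -1.32 ± 0.10 in Rbpj-KO and -0.83 ± 0.12 in Etv5-KO beside -2.48 ± 0.11 in RGd2, Spry4 had 5.37 ± 0.16 and 6.33 ± 0.17 beside 7.81 ± 0.22, and Axin2 had -2.64 ± 0.15 and -2.24 ± 0.16 beside -2.80 ± 0.14. Otx2 had 1.27 ± 0.12 and 0.70 ± 0.13 beside 2.66 ± 0.13. Whether these responses differ between the lines was not tested here.

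At 72 h in N2B27, against 2i after 5 passages, 837 of the higher genes were still called higher (62.6%, background 32.2% or 4343 genes) and 194 were called lower (14.5%). Of the lower genes 1782 were called lower (35.6%, background 23.4% or 3160 genes) and 1109 higher (22.1%). With TMM 48.2% of the higher genes were higher (background 28.5%) and 22.8% lower, while 53.8% of the lower genes were lower (background 34.9%) and 17.2% higher. Of the 15 formative genes called at 16 h 14 were called in the same direction at 72 h, and Lef1 (log2 -0.06 ± 0.17) was not called there. Pou3f1 reached log2 7.74 ± 0.37 and Dnmt3b 4.47 ± 0.14, both further from 2i than at 16 h, where they had 5.24 and 1.28. Of the 13 naive factors called at 16 h 11 were called in the same direction at 72 h. Nanog had log2 -3.31 ± 0.11, Esrrb -4.12 ± 0.13, Nr5a2 -6.08 ± 0.15 and Zfp42, not called at 16 h, -3.75 ± 0.13.

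Other genes called at 16 h were called in the opposite direction at 72 h, by spike-in scaling. Dnmt3l, higher at 16 h, was lower at 72 h (log2 -1.71 ± 0.15), as were Dppa2 (-1.83 ± 0.10), Nr0b1 (-3.37 ± 0.15), Capn3 (-2.52 ± 0.25) and Pax6 (-2.34 ± 0.29). Robo4, a guidance receptor, went from 24.2, 13.8 and 20.2 in 2i to 329, 273 and 389 at N16h (log2 4.12 ± 0.31) and had -2.68 ± 0.45 at 72 h. Halr1, a long noncoding RNA beside the Hoxa cluster, went from 773, 587 and 480.5 to 2323, 2333 and 2317 (log2 1.89 ± 0.19) and had -3.55 ± 0.30, with Hoxa10 at 3.78 ± 0.73 and -3.09 ± 0.89. In the other direction the neurofilament genes Nefl and Nefm fell by 16 h (log2 -2.49 ± 0.33 and -3.37 ± 0.45) and were higher at 72 h (2.64 ± 0.35 and 3.11 ± 0.49), and so were Fras1, an extracellular matrix gene (-2.52 ± 0.26 and 2.53 ± 0.26), and Tubb3 (-1.89 ± 0.12 and 0.93 ± 0.12). The genes in this paragraph other than list members were picked for that contrast after their values were seen. The baselines were separate 2i cultures and differed for some of these genes. Mean normalised counts of Nefl were 993 in 2i, 181 at N16h, 161 in 2i after 5 passages and 994 at 72 h. In that order Nefm had 126, 12.2, 13.6 and 124 and Pax6 35.5, 415, 160 and 33.0. These 72 h means lay near the first 2i baseline. At 72 h Robo4, Hoxa10 and Capn3 lay below both baselines and Fras1 above both. With 2i after 5 passages as the baseline of N16h itself 4084 genes were called higher and 2490 lower.

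**Figure D5:**
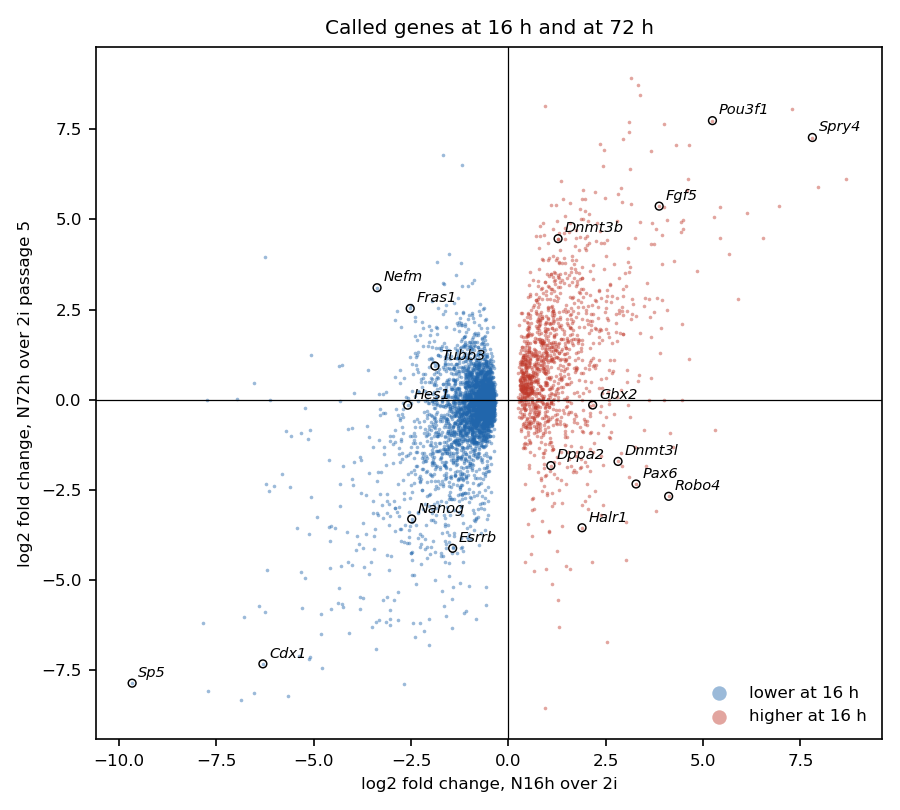
Log2 fold change at 72 h in N2B27 over 2i passage 5 (y axis) against that at 16 h over 2i (x axis) for the genes called at 16 h with both scalings (1337 higher in red, 3536 lower in blue), named genes circled. Dnmt3l, Pax6 and Robo4 lie right of 0 and below it, Nefm lies left of 0 and above it, and Pou3f1 and Nanog lie on the same side at both times.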

How the data were processed

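Total RNA was depleted of ribosomal RNA, mixed with ERCC spike-ins and sequenced as strand-specific paired ends (the GEO molecule field names polyA RNA). Per the study's methods, adapters were removed with Trim Galore and TopHat2 placed the reads on GRCm38/mm10 with Gencode M14 models as a guide. The authors deposited raw counts of primary unique matches per gene and per spike-in from featureCounts, 1 column per library. Tool versions are not given in the sources used here. Groups follow the labels.

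From these counts, a size factor per library was taken as its median ratio for 52 spike-ins, those read in all libraries. edgeR 4.0.16 (R 4.3.3) fitted its quasi-likelihood model to all 32 libraries with a coefficient for each of 11 conditions, so that all groups share the estimate of the spread, after its expression filter (19037 genes), with Benjamini-Hochberg adjustment. SE is the log2 fold change over the root of F. DESeq2 1.42.0 and other settings were alternatives, and the scripts were tested on simulated counts. Symbols matched all but 193 IDs, which held 0.0259% of counts. Intervals and floors (3 reads) cover counting error only.

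Named genes were the 10 per direction with the largest log2 change whose libraries did not overlap, the 10 with the largest FPKM difference, up to 8 members per list with the largest change, and the targeted genes. Some genes that the rule picks are not reported here. Further members were named after their values were seen. Members and lists were chosen with earlier results of these data known.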

Additional observations from a re-analysis of the deposited data

Results flagged for a closer look

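In Rbpj-KO the log2 change at N16h over 2i had every N16h library above every 2i library, where in RGd2 every N16h library lay below, for Atf4 (0.14, against -0.17 in RGd2), Etv5 (0.14, against -0.30 in RGd2), Klf5 (0.69, against -0.41 in RGd2), Notch4 (0.42, against -1.21 in RGd2) and Nrarp (0.87, against -1.96 in RGd2). In Etv5-KO the log2 change at N16h over 2i had every N16h library above every 2i library, where in RGd2 every N16h library lay below, for Ascl2 (0.73, against -0.99 in RGd2), Atf4 (0.17, against -0.17 in RGd2), Bambi (0.32, against -0.37 in RGd2), Etv5 (0.45, against -0.30 in RGd2), Gm23935 (1.92, against -1.99 in RGd2), Klf5 (1.56, against -0.41 in RGd2), Lif (0.35, against -1.04 in RGd2), Notch4 (4.39, against -1.21 in RGd2), Nr4a1 (0.48, against -1.46 in RGd2), Sox2 (0.33, against -0.53 in RGd2), Tcf7l1 (0.67, against -0.70 in RGd2) and Tet3 (0.88, against -0.61 in RGd2). These genes were among those named in the report, the changes use spike-in scaling, by which the median of all expressed genes was -0.23 in RGd2, -0.03 in Rbpj-KO and 0.21 in Etv5-KO, and the differences between the lines were not tested. In RGd2 the libraries did not overlap for 43.8% of expressed genes. Atf4, Etv5, Ascl2 and Bambi were not called in RGd2 with the spike-ins, and Klf5 was not called there with TMM. The Tcf7l1 call in RGd2 was lost without both clonal-line libraries. With 2i after 5 passages as the baseline, the RGd2 change itself turned above 0 for Atf4, Gm23935, Klf5, Tcf7l1 and Tet3 (values below). Atf4 lay above the median in RGd2 and in Rbpj-KO, and in Etv5-KO its 0.17 lay below the median of 0.21. Etv5-KO at N16h had 2 libraries. Etv5 is the gene targeted in Etv5-KO, where its reads were reduced in 2i to 2241 ± 146 normalised counts (SD, n = 3).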

How the results depend on the processing

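The counts of higher and lower genes moved with what the libraries were scaled to. Higher genes numbered 2875 with TMM and 3245 with median of ratios on genes, and lower genes 3214 with the latter. They numbered 4084 and 2490 with 2i at passage 5 as the baseline. Lower genes numbered 2923 when the fit held only the libraries compared and 2864 with a fold change of at least 1.5, and higher genes 876 at a mean CPM of at least 5. Total spike-in count (1289 and 5072), DESeq2 (1375 and 5167), no low-count filter (1288 and 4592) and, added after seeing the data, leaving out both clonal-line libraries (1220 and 5240) stayed within 1.5 times of 1337 and 5009. With each library left out in turn, higher genes ran from 1083 to 1757 and lower genes from 3377 to 6305. The 1757 and the 3377 came without 2i replicate 31, and the 6305 without 2i replicate 33. Genes called in the same direction in Rbpj-KO ran from 2570 to 3384, in Etv5-KO from 1944 to 2788 and at 72 h from 2361 to 2948, and the difference in spike-in share from 0.0737 to 0.275. In Etv5-KO the genes called in the same direction numbered 4022 with TMM and 4000 with median of ratios. Among the named genes, 252 kept their call, or its absence, with TMM, 272 with DESeq2 and 208 with 2i at passage 5 as baseline. Among genes called in either of the fits compared, the log2 change turned sign with TMM for Ctnnb1 (0.14) and Mdm2 (0.16), with median of ratios for Ctnnb1 (0.17), Lifr (0.20) and Mdm2 (0.19), without both clonal-line libraries for Gm10800 (0.80) and Rpph1 (0.78), and against 2i at passage 5 for Atf4 (0.50), Cdh1 (0.15), Cdh2 (0.0086), Cdkn1b (0.14), Col4a1 (2.36), Fgfr1 (0.066), Gm10800 (0.54), Gm23935 (0.60), Gm26917 (0.33), Gsk3a (0.24), Id2 (1.68), Klf5 (0.092), Lifr (0.64), Nefl (0.21), Phgdh (0.28), Psat1 (0.37), Psph (0.48), Sall3 (0.37), Sall4 (0.20), Sox12 (0.50), Sp8 (0.13), Srf (0.50), Tcf7l1 (0.41), Tcf7l2 (1.38), Tet3 (0.24), Trib3 (0.99), Uhrf1 (0.70), Usp17lc (1.76), Zfp42 (0.31), Zscan4c (1.39) and Zscan4d (1.40). The cause was not tested. With each library left out in turn Gm10800 ran from -7.57 to 1.11 and Rpph1 from -1.90 to 0.67, both higher without 2i replicate 33. The groups share no replicate number, and the labels tie their libraries by line or clone alone. With the clonal line as replicate block, fitted on the 6 libraries, 1238 genes were higher and 3591 lower, and the call was lost for Axin1, Cdh1, Dppa5a, Fgfr1, Gsk3a, Hist1h4b, Klf5, Odc1, Psat1, Rpph1, Sall4, mt-Rnr1 and mt-Rnr2 (adjusted p from 0.064 to 0.29). Fits of the other comparisons on their own libraries, added after seeing the data, gave 3564 genes in the same direction in Rbpj-KO, 2602 in Etv5-KO and 2748 at 72 h, and with the line or clone as replicate block 3791, 2071 and 2679. The shallowest library, with 5986857 reads, limits what can be seen of low genes in 2i.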

Other observations

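Of 248 expressed lincRNA genes 50 were called higher at N16h and 50 lower, and of 134 antisense genes 16 and 34, beside 1181 and 4735 of 12202 protein-coding genes. With TMM 66 lincRNA genes were higher and 32 lower, and 2649 and 3379 protein-coding genes.

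The clonal line differed from the parental line by at least 2-fold on the same side in both groups for 186 expressed genes, of which 63 were called at N16h (33.9%, beside 47% of all expressed genes). These genes were chosen after their values were seen, and with 1 clonal library per group no test was made. The differences that picked them count as spread between libraries in the calls, so these shares cannot be compared. Eif2s3y, Ddx3y and Uty, genes of the Y chromosome, had log2 ratios of clonal over parental of -10.90, -11.43 and -8.39 in 2i and -8.45, -8.13 and -8.31 at N16h. Zscan4d and Zscan4b, near copies within a cluster active in a rare two-cell-like state, had -3.51 and -3.64 in 2i and -3.64 and -5.07 at N16h, and Mid1, a microtubule-associated ligase, -2.96 and -4.90. Higher in the clonal line were the basement membrane genes Col4a1 (1.92 in 2i and 1.98 at N16h) and Col4a2 (1.90 and 1.87) and the endoderm genes Cubn (1.96 and 3.58) and Pdgfra (2.00 and 1.02). Lrp2, on the same list of primitive endoderm markers, went the other way. Its normalised counts were lowest in the clonal library of each group (values above).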
